A study of Arabidopsis thaliana with 24 samples.

Results

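Leaf blades of Arabidopsis thaliana fed oxidized glutathione (GSSG) were compared with leaf blades of plants given only water, 4 weeks after sowing. The 4 arrays compared, 2 of GSSG-fed and 2 of water-fed plants, were chosen by their titles from the 24 arrays of the study. All plants were wild type of the Columbia accession, and no mutant or transgene was involved. From the first week on, pots were subirrigated weekly, each with 25 ml of 1 mM GSSG in the GSSG group and with plain water in the control group. The RNA came from blades just below the top of the rosette, the second and the third among those fully expanded. Another 4 arrays of the same harvest, 2 each of plants fed 2 mM reduced glutathione (GSH) or 3 mM NH4NO3, and the GSSG and water arrays of 3 and 5 weeks are used below where they bear on the same genes. At 3 weeks the whole aerial part with the shoot apex was taken, so that harvest differs in tissue as well as in age. The labels do not say whether the 2 replicates of a group came from separate pots or plants, so p-values cover no more than the spread of these samples, possibly only technical spread.

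Glutathione is a tripeptide with a free thiol that plant cells use as a redox buffer, as a carrier of reduced sulfur and as the electron donor of glutaredoxins, small enzymes that reduce disulfides. GSSG is a pair of GSH molecules joined by a disulfide bond, and glutathione reductase returns it to GSH inside cells. Land plants have a large class of glutaredoxins with a CC-type active site, known for acting with TGA transcription factors in development, defence and nitrogen signalling. In leaves, glutathione also feeds the ascorbate cycle that removes hydrogen peroxide from chloroplasts.

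Transcripts were read as 1 fluorescence signal per probe set, a group of probes for 1 transcript, and 22746 probe sets were tested. Each array had been scaled to a trimmed mean signal near 500.05. The untrimmed mean was still higher with GSSG than with water, 792 against 769 in replicate 1 and 845 against 814 in replicate 2. The median was lower with GSSG, 160 against 166 and 174 against 179. The medians of the photosystem and Calvin cycle lists were smaller after quantile normalization, as given below. The part of this difference in the changes of bright genes was not tested. Leaf genes were bright: the measured genes of the photosystem and Calvin cycle lists had signals from 2048 to 57512 on the 4 arrays. CLV3, a shoot meristem marker, stood at 8.53 and 6.46 with water and at 4.32 and 3.20 with GSSG. FMA (FAMA), a guard cell factor, stood at 265 and 228 with water and at 253 and 235 with GSSG. Of the root, seed, flower, vascular and dividing-cell marker lists, no member had a probe set named here. In whole blades, fewer cells of a type and less RNA per cell cannot be told apart.

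The replicate 2 arrays of this harvest stood apart in technical controls, in both groups alike. The 3'/5' signal ratio of actin, which rises as RNA is degraded, was 3.71 with water and 3.70 with GSSG in replicate 1, and 4.81 with water and 4.48 with GSSG in replicate 2. The cre spike, a control added to each sample, read 34852 and 40898 in replicate 1 and 56420 and 61671 in replicate 2, water first. Same-numbered arrays also deviated together from their group means. The result is therefore given from 2 fits, without and with the replicate number as a block, and the part of RNA quality in it was not tested.

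Without the block, a few transcripts were lower in GSSG-fed blades and fewer were higher, while with it the 2 directions were nearly even. Of 22746 probe sets, 11 passed an adjusted p under 0.05 in limma's test (0.0484%), of which 2 rose (0.00879%) and 9 fell (0.0396%). With the replicate block, 156 passed (0.686%), 76 higher (0.334%) and 80 lower (0.352%), and these included all 11. At an unadjusted p under 0.05 there were 2237 (9.83%). Over all probe sets the median log2 change was -0.03. The change was above 0 for 47%. Both GSSG arrays lay above both water arrays for 16.5% of probe sets and below both for 18.8%. With 2 arrays a group such a separation is thus common, and for a single gene it says little by itself. The 11 are 7 probe sets with a single gene, 1 that matches several genes and 3 unnamed here.

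These counts hung on the arrays and the fit. Leaving out 1 array at a time, with its partner assumed to vary like the other groups, gave 42 calls without GSSG replicate 1 and 3 without water replicate 1. It gave 0 without GSSG replicate 2 and 0 without water replicate 2, where 1891 and 1343 had an unadjusted p under 0.05. With the block but only the 8 arrays of this harvest, 11 passed, 7 higher and 4 lower. Of these, 2 are among the 11 of the fit on all arrays. Within replicate 1 the GSSG minus water differences had an SD of 0.37 on the log2 scale, and within replicate 2 an SD of 0.51, over the 13647 probe sets above the 40th percentile of signal. Across those probe sets, which are not independent replicates, the differences of the 2 replicate numbers correlated at r = 0.38 and had the same sign in 63.2%.

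**Figure D1:**
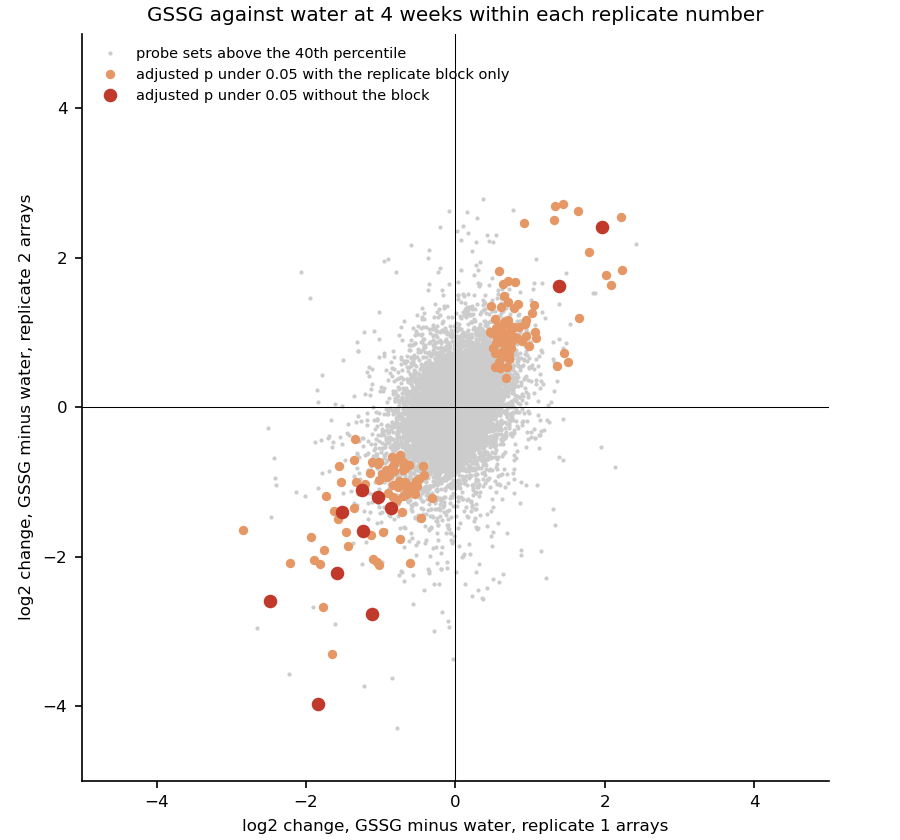
Each point is 1 probe set, with the log2 difference of GSSG minus water between the replicate 1 arrays on the horizontal axis and the replicate 2 arrays on the vertical axis. The 11 probe sets called without the block (red) and the others called only with it (orange) lie where both differences have the same sign. The grey cloud is taller than wide, as its SD of 0.51 against 0.37 states.

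The glutaredoxin gene AT1G06830, which encodes the CC-type member GRXS11, fell. Its signal was 951 and 805 in the water arrays (replicate 1, then replicate 2, here and below) and 322 and 295 in the GSSG arrays. Both GSSG arrays lay far below both water arrays, and the mean was 2.85-fold lower. The log2 change was -1.46 ± 0.26 (SE; adjusted p = 0.0473, and 0.0083 with the block), and it was -1.52 within replicate 1 and -1.40 within replicate 2.

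A pair of genes of RNA and protein synthesis also fell. AT3G18600 encodes a DEAD-box RNA helicase of the kind that works on ribosomal RNA precursors. Its signal was 484 and 432 with water and 194 and 193 with GSSG. These groups were tight and did not overlap, and the change of -1.18 ± 0.16 had an adjusted p of 0.0087 (0.0013 with the block). AT5G20180, of the ribosomal protein L36 family, read 1714 and 1717 with water against 934 and 664 with GSSG. The water arrays were nearly equal here, and the change was -1.11 ± 0.16 (adjusted p = 0.0137, 0.0030 with the block).

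The largest fall among the called probe sets with a named gene was that of AT1G76960, a gene without a symbol in the reference. It read 3214 and 5035 with water and 562 and 824 with GSSG, a 5.95-fold lower mean. Replicate 2 was the brighter array in each group, and the differences within the replicates were -2.48 and -2.59 (fitted change -2.54 ± 0.44, adjusted p = 0.0473, 0.0013 with the block). AT4G36010, of the thaumatin family that includes pathogenesis-related proteins, read 355 and 500 with water and 141 and 148 with GSSG. Its GSSG values were close to each other and below both water values, with a change of -1.45 ± 0.26 (adjusted p = 0.0473, 0.0027 with the block).

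AT1G10410 and AT3G63090 fell as well. AT1G10410 read 373 and 433 with water and 174 and 180 with GSSG, a change of -1.11 ± 0.19 (adjusted p = 0.0411, 0.0098 with the block). AT3G63090, of a ubiquitin hydrolase family, read 170 and 179 with water, and 69.3 and 12.6 with GSSG. The water arrays were alike while the GSSG arrays differed more than 5-fold from each other, so its change of -1.95 ± 0.35 (adjusted p = 0.0473, 0.0091 with the block) depends on how dim values are scaled.

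The probe set unnamed here as 261979_at had the largest change of all 11. It read 1873 and 3743 with water and 513 and 223 with GSSG. It was the brighter water array that went with the dimmer GSSG array, so the difference was -1.84 within replicate 1 and -3.97 within replicate 2 (fitted -2.90 ± 0.37, adjusted p = 0.0047, 0.0013 with the block). The probe set 267162_s_at, which matches several genes, read 131 and 104 with water and 33.1 and 9.80 with GSSG (-1.90 ± 0.29, adjusted p = 0.0137, 0.0027 with the block).

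Both probe sets that rose are unnamed here. The first, 252415_at, read 99.7 and 138 with water and 434 and 808 with GSSG, a 5.22-fold higher mean. Its lower GSSG array was still above 3 times its higher water array, and the change was 2.19 ± 0.37 (adjusted p = 0.0405, 0.0083 with the block). The other, 253522_at, read 297 and 234 with water and 801 and 750 with GSSG, without overlap (1.5 ± 0.27, adjusted p = 0.0473, 0.0084 with the block).

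**Figure D2:**
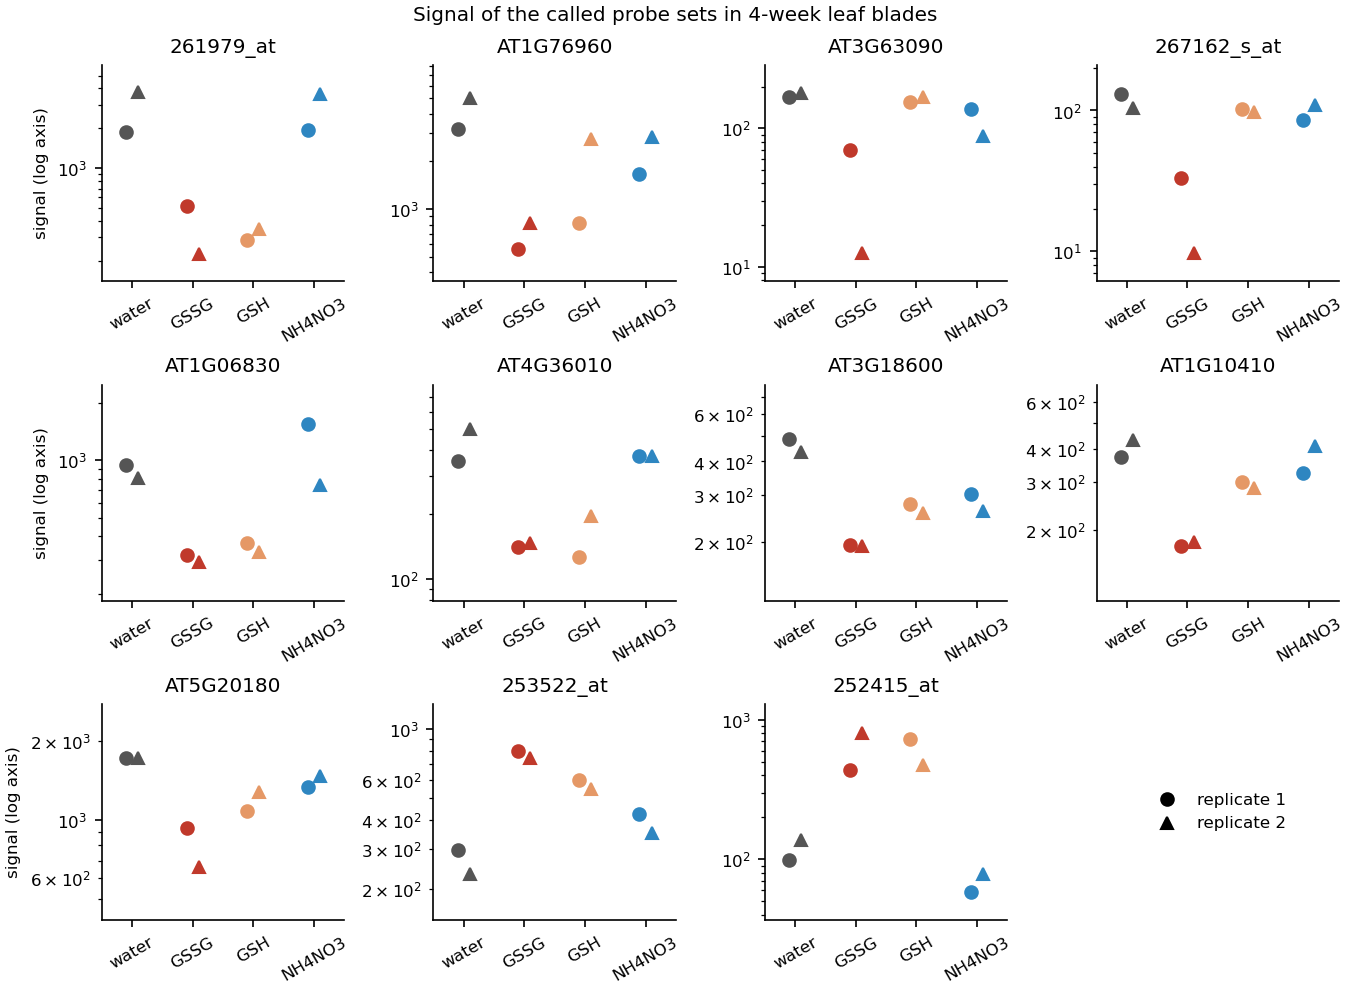
Signal on a log axis of the 11 called probe sets on the 8 arrays of the 4-week harvest, with circles for replicate 1 and triangles for replicate 2 in the water, GSSG, GSH and NH4NO3 groups. In every panel both GSSG points lie on the same side of both water points. For 261979_at and 252415_at the GSH points lie beside the GSSG points and the NH4NO3 points beside the water points.

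The 10 largest positive and 10 largest negative changes among probe sets with a single gene were taken by a rule on size, signal and separation of the groups. Without the block 2 of these 20 genes passed the test, AT1G76960 and AT3G63090. With it, 5 of the lower and 4 of the higher genes did. Both groups were separate in all 20, because the rule asked for that.

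A pair of genes of the thionins, small cysteine-rich antimicrobial peptides, was among the largest positive changes, while the thionin THI2.1 passed neither fit (0.88 ± 0.52, adjusted p = 0.600, 0.490 with the block). THI2.2 read 114 and 133 with water and 593 and 519 with GSSG. Both GSSG arrays were above both water arrays, and the mean was 4.49-fold higher, with a change of 2.03 ± 0.51 that missed the threshold without the block (adjusted p = 0.155) and passed with it (0.0091). AT1G66100, of the same family, read 1778 and 2316 with water and 7253 and 7963 with GSSG. It was the brightest of the 20 genes, and its change of 1.90 ± 0.46 likewise passed only with the block (adjusted p = 0.145 without, 0.0016 with). AT5G48490, a DIR1-like lipid transfer protein gene, read 62.3 and 88.6 with water and 180 and 664 with GSSG. Its GSSG arrays were far apart, and the change of 2.01 ± 0.38 had an adjusted p of 0.0544, or 0.0155 with the block.

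STOMAGEN, which encodes a secreted peptide that promotes stomatal formation, read 212 and 182 with water and 642 and 412 with GSSG. Its groups were separate, but the change of 1.32 ± 0.39 did not pass (adjusted p = 0.263, 0.0501 with the block). AT3G52900 passed only with the block (1.21 ± 0.31, adjusted p = 0.169, 0.0495 with the block), from 169 and 89.6 to 261 and 360. The other higher genes of the rule, AT1G66760, AT1G62510, AT5G47330, AT1G73620 and AT2G30560, had changes from 1.17 to 1.7 and passed neither fit.

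PDF1.2b, a defensin gene of the jasmonate and ethylene pathway, had a mean change of -2.54 ± 0.88 and passed neither fit (adjusted p = 0.321, 0.110 with the block). It read 315 and 4046 with water and 177 and 191 with GSSG, so 1 water array set the mean. The related PDF1.2 had the same shape, 284 and 2773 with water and 278 and 253 with GSSG. Within replicate 1 the difference of PDF1.2 was -0.03, and within replicate 2 it was -3.38.

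Among the falls that passed only with the block, AT3G28540, an AAA-type ATPase gene, read 922 and 1909 with water and 260 and 497 with GSSG. The differences within replicates were close, -1.77 and -1.91 (fitted -1.84 ± 0.43, adjusted p = 0.142, 0.0016 with the block). AT3G14280 went from 182 and 338 to 26.8 and 67.1 (-2.15 ± 0.51, 0.0084 with the block). AT3G48640 went from 107 and 142 to 1.18 and 34.6 (-2.24 ± 0.49, 0.0375 with the block), at the dim end of the array. The changes of AT4G00700, AT3G05190, AT2G20560 and AT5G52760 were between -1.72 and -2.09 and passed neither fit.

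**Figure D3:**
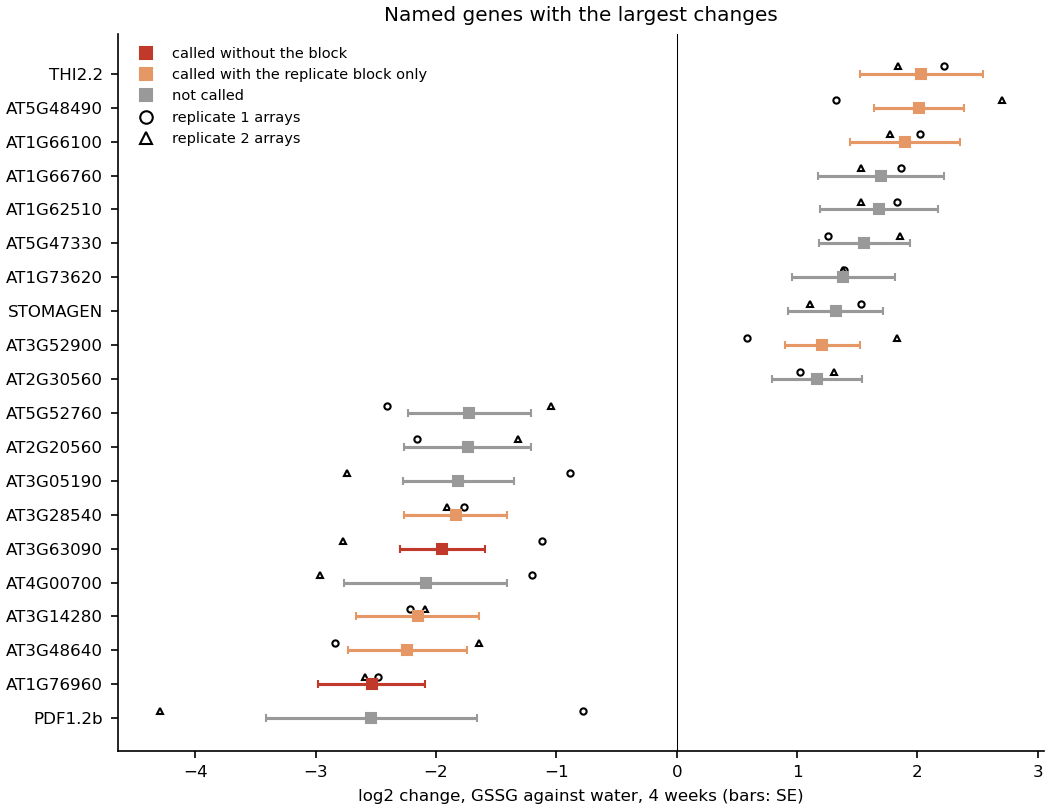
Log2 change of GSSG against water for the 20 named genes with the largest changes, as squares with SE bars; open circles and triangles show the differences within replicate 1 and replicate 2. Red squares passed without the block, orange only with it, grey in neither fit. PDF1.2b has the widest distance between its replicates, -0.78 and -4.29.

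The 156 probe sets called with the block include 78 with a single gene, 38 higher and 40 lower. The genes of these given next were chosen after their values were seen. AT1G73600, of the phosphoethanolamine methyltransferase family that makes the phosphocholine head group, had the smallest adjusted p with the block. It read 7011 and 8118 with water and 2340 and 2868 with GSSG, with nearly equal differences of -1.58 and -1.50 in the replicates. Its change of -1.54 ± 0.32 had an adjusted p of 0.091 without the block and 0.0001 with it.

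RING1, a RING finger ubiquitin ligase gene, read 6259 and 5095 with water and 2008 and 1946 with GSSG (-1.51 ± 0.30, adjusted p = 0.0817, 0.0210 with the block). LUP5, of triterpene synthesis, read 69.1 and 79.4 with water and 6.83 and 7.08 with GSSG, which is under the pseudocount of 16 (-1.97 ± 0.54, 0.0305 with the block). GAMMA-VPE, a vacuolar protease gene, went from 11325 and 17634 to 6253 and 10123 (-0.83 ± 0.36, 0.0483 with the block). In GAMMA-VPE the groups did not separate by much, since the lower water array was only just above the higher GSSG array. UPP, of pyrimidine salvage, was higher: 476 and 359 with water and 922 and 797 with GSSG (1.02 ± 0.21, adjusted p = 0.089, 0.0037 with the block). FTSZ2-2, a plastid division gene, was higher as well, at 1304 and 1110 with water and 1840 and 2219 with GSSG (0.74 ± 0.17, 0.0251 with the block).

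Gene lists were described by their measured members, the 159 distinct list genes with a probe set annotated to that gene alone. Other members may be read by probe sets with several genes or by the 8730 unnamed here. Not measured thus means only that no such probe set was named. Of these 159, 0 rose and 2 fell without the block, against 0.00879% and 0.0396% of all probe sets, and 4 rose and 3 fell with it (4.4% in all, against 0.686%). Both GSSG arrays were above both water arrays for 22% of the list genes, against 16.5% of all probe sets, and below both for 24.5%, against 18.8%. The lists were chosen with earlier results of these data known. So were several members, among them AT3G18600 and AT1G06830, the 2 that fell without the block. SBPASE and LTI30, which passed with the block, were also chosen so, as were COR15A and WRKY53, which passed neither fit. The excess over all probe sets is thus partly built in, and these shares are only a description.

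All 7 measured genes of chlorophyll synthesis (of 21 listed) had a higher mean with GSSG, with a median log2 change of 0.44, and 1 passed, with the block. That was CHLI2, a subunit of the magnesium chelatase that opens the chlorophyll branch. It read 1004 and 631 with water and 1680 and 1365 with GSSG (0.91 ± 0.28, adjusted p = 0.276, 0.0084 with the block). HEMB1 and HEME2, of the steps before the branch, had changes of 0.53 ± 0.17 and 0.51 ± 0.20 and passed neither fit.

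Of the 7 measured nuclear genes of the photosystems and electron transport (of 42), all were higher on average, with a median of 0.34 (0.16 after quantile normalization), and limma called 0 in either fit (0 at an unadjusted p under 0.05). PSAN, a photosystem I subunit, read 21488 and 23886 with water and 26014 and 37726 with GSSG (0.47 ± 0.25). The members' 2 replicates did not always go the same way: the antenna gene LHCB4.2 had differences of -0.15 and 0.19.

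In the Calvin cycle, SBPASE, a bisphosphatase of the regeneration phase, read 9380 and 8119 with water and 15047 and 15574 with GSSG. Its groups were well apart, and the change of 0.81 ± 0.19 passed with the block (adjusted p = 0.138 without, 0.0233 with). PRK and RCA, the other measured members of 20, had changes of 0.27 ± 0.24 and 0.18 ± 0.27, and after quantile normalization the median of the list went from 0.27 to 0.07. All 3 measured photorespiration genes (of 12) were higher with the groups apart (16.5% of all probe sets were), at a median of 0.64, and limma called 0 in either fit (2 at an unadjusted p under 0.05). The glycine decarboxylase T gene AT1G11860 read 8694 and 8147 with water and 13184 and 13505 with GSSG (0.66 ± 0.25, adjusted p = 0.358, 0.174 with the block).

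Peroxide-removing enzymes of the plastid were among the genes that passed with the block. TAPX, the thylakoid ascorbate peroxidase, read 1690 and 1454 with water and 3277 and 3294 with GSSG. The GSSG arrays were nearly equal and about 2.09-fold above water, and the change of 1.06 ± 0.20 had an adjusted p of 0.0544, or 0.0083 with the block. AT3G52960, the plastid peroxiredoxin PRXIIE, read 2601 and 1775 with water and 3579 and 3599 with GSSG (0.74 ± 0.23, adjusted p = 0.286, 0.0456 with the block). AT3G11630, a 2-Cys peroxiredoxin, had a change of 0.62 ± 0.22 and passed neither fit. The stromal peroxidase SAPX was not among the higher genes, with a change of -0.19 ± 0.19. Of the 5 measured members of the 27 on this list, 3 were higher and 2 lower, with a median of 0.62. With the block 2 passed, where 0.686% of all probe sets did.

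The measured genes that handle glutathione itself passed in neither fit. GR1 and GR, the glutathione reductases, had changes of -0.25 ± 0.15 and -0.15 ± 0.17. No other gene of the 23 on the list of glutathione synthesis, breakdown and recycling had a single-gene probe set named here. Of 13 measured glutathione S-transferases (of 47), which join glutathione to other molecules, 9 were higher and 4 lower, with a median of 0.09, and limma called 0 in either fit (1 at an unadjusted p under 0.05). GSTU22 was the member with the largest change, 1.45 ± 0.56, but was dim, at 6.20 and 6.66 with water and 35.1 and 57.1 with GSSG. Of the 3 measured genes of sulfate uptake and assimilation (of 21), SIR had a change of -0.19 ± 0.17, APS4 of -0.23 ± 0.16 and APS3 of 0.22 ± 0.22.

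Of the CC-type glutaredoxins 16 of 20 were measured, 6 higher and 10 lower, with a median of -0.36. Only AT1G06830 passed, in both fits. AT5G11930 went from 200 and 174 to 85.4 and 112 (-0.83 ± 0.34, adjusted p = 0.411), and AT4G15700 from 34.5 and 24.8 to 61.0 and 98.2 (1.05 ± 0.42, adjusted p = 0.404). Members thus lay on both sides of 0, and most had a mean signal under 100 with water. Within replicate 1 and replicate 2 the median of the list was nearer 0, at -0.18 and -0.19. Of the other glutaredoxin classes, 5 of 10 were measured, with a median of -0.15, and limma called 0 in either fit (1 at an unadjusted p under 0.05).

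All 10 measured genes of ribosome biogenesis (of 30) had a lower mean with GSSG, with a median of -0.25, and AT3G18600 alone passed. AT3G03920, of the GAR1 family of RNA modification proteins, followed with -0.48 ± 0.21 (adjusted p = 0.456, 0.106 with the block). For 6 of the 10 both GSSG arrays were below both water arrays, against 18.8% of all probe sets.

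The measured genes of the stress and early defence lists were lower on average. All 5 measured genes of abscisic acid, drought and cold response (of 35) were lower, with a median of -0.35. LTI30, a cold-induced dehydrin gene, read 972 and 1745 with water and 507 and 902 with GSSG. The ranges nearly touched, but the differences of -0.92 and -0.94 within the replicates were alike (-0.93 ± 0.34, adjusted p = 0.349, 0.0084 with the block). COR15A, which encodes a chloroplast cryoprotectant, read 13324 and 16123 with water and 4258 and 11731 with GSSG, a change of -1.05 ± 0.39 that passed neither fit (adjusted p = 0.359, 0.0589 with the block).

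The 5 measured genes of early defence (of 23) were lower, with a median of -0.91, and limma called 0 in either fit (2 at an unadjusted p under 0.05). Within replicate 1 the median was -0.16 and within replicate 2 it was -1.28, so most of the difference lay between the replicate 2 arrays, those with the higher actin ratio, and the part of RNA quality was not tested. WRKY53, a transcription factor of defence and senescence, differed about equally in both replicates. It read 265 and 462 with water and 109 and 181 with GSSG (-1.22 ± 0.38, adjusted p = 0.278, 0.136 with the block). STZ, a zinc finger gene induced by stress, read 252 and 879 with water and 173 and 241 with GSSG (-1.15 ± 0.59). In STZ, as in the defensins, the high value was that of water replicate 2.

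Growth genes lay on both sides of 0. Expansins, which loosen cell walls, split into 7 higher and 7 lower among 14 measured, with a median of 0.06. Of the 9 measured xyloglucan endotransglucosylases 4 were higher and 5 lower. XTH18 stood out among these with 4.52 and 3.70 with water and 63.4 and 51.6 with GSSG, a change of 1.86 ± 0.59 at low signal (adjusted p = 0.286, 0.0636 with the block). The AUX/IAA and GH3 auxin genes had 6 higher and 5 lower. None of the genes of these 3 lists passed in either fit. At an unadjusted p under 0.05, 2 expansins were lower, and 2 xyloglucan endotransglucosylases and 1 auxin gene were higher.

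In the lists of nitrate-responsive regulators, thioredoxins, flavonoids, glucosinolates, sulfur deficiency, jasmonate, senescence and WRKY factors, limma called 0 in either fit. Nitrate-responsive regulators had 3 of 16 measured, all lower, with a median of -0.20, and AT3G25790, of the HHO repressor family, at -1.10 ± 0.45. Thioredoxins, which pass electrons to other proteins, had 3 of 21 measured, all higher, with a median of 0.42. Flavonoid and anthocyanin genes had a median of 0.08 over 7, glucosinolate genes -0.13 over 4, sulfur deficiency genes -0.41 over 3, and WRKY factors -0.53 over 6. Within replicate 1 and replicate 2 the median was 0.07 and -0.83 for WRKY factors, -0.22 and 0.07 for flavonoid genes, and -0.03 and -0.48 for nitrate-responsive regulators, so for the first 2 lists the sign differed between replicates. For sulfur deficiency genes both were nearer 0, -0.08 and -0.07. Each of the nitrate, thioredoxin, flavonoid, jasmonate, senescence and WRKY lists had 1 gene at an unadjusted p under 0.05, and the glucosinolate and sulfur deficiency lists had 0. In the senescence and the WRKY list that gene is WRKY53, which is also on the early defence list. These lists share members, so their values are not separate observations.

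**Figure D4:**
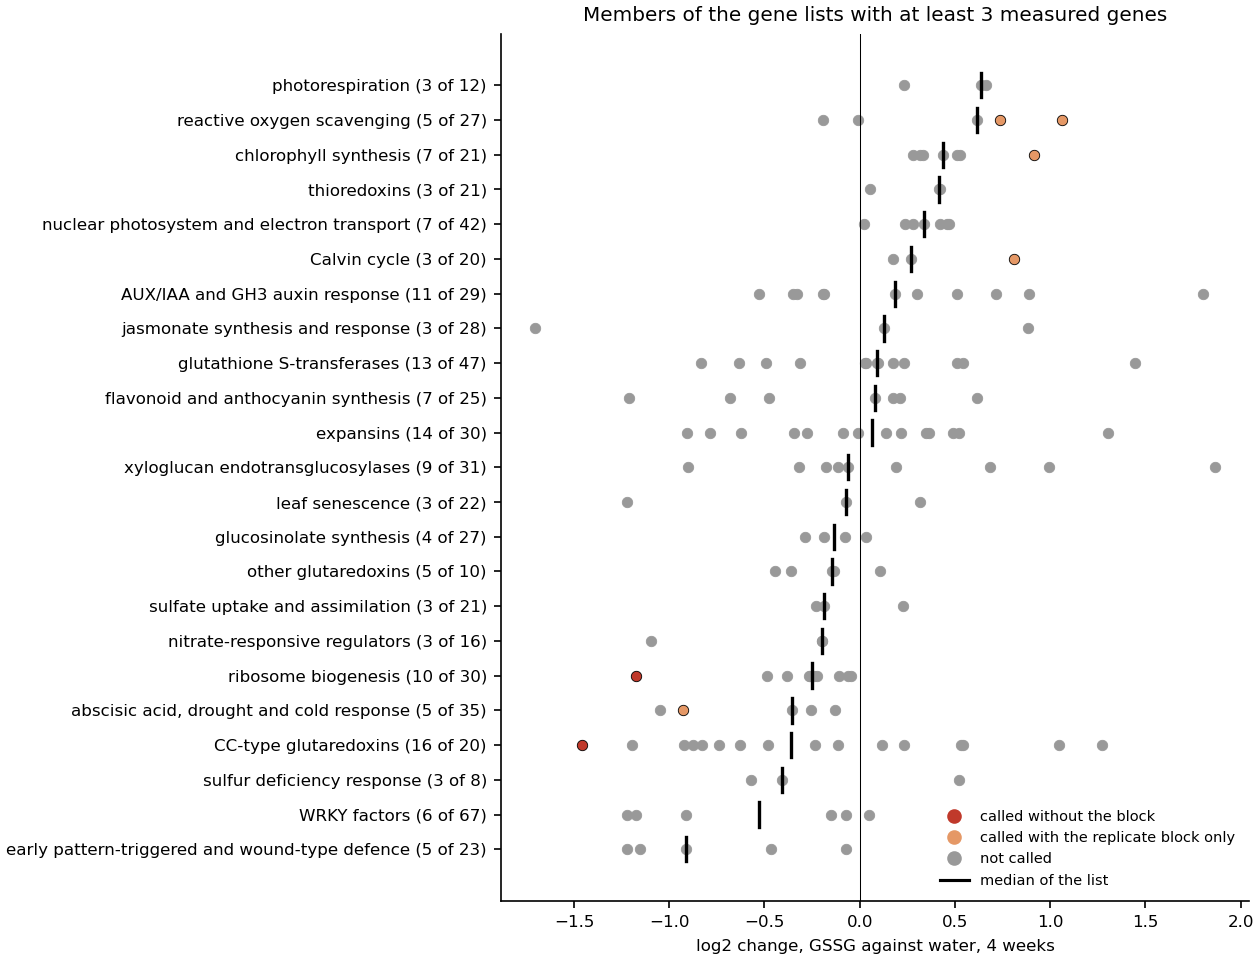
Each point is the log2 change of 1 gene in GSSG against water at 4 weeks, by gene list, with the number measured of those listed; the bar is the median. Red points passed without the block, orange with it only. All points of the chlorophyll, photosystem, Calvin cycle and photorespiration lists lie right of 0, and the early defence list has the lowest median, -0.91.

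GSH is the reduced form fed at a dose equal in glutathione units, and the GSSG and GSH arrays were compared directly, which leaves out the water arrays. In that contrast 2 probe sets passed (0.00879%), both lower with GSSG, and 3 with the block (0.0132%), against 1540 at an unadjusted p under 0.05 (6.77%). Neither of the 2 has a gene name here. The first, 254265_s_at, read 720 and 465 with GSSG and 1839 and 4204 with GSH (-2.23 ± 0.34, adjusted p = 0.0298). The other, 256431_s_at, read 354 and 482 with GSSG and 1162 and 2015 with GSH (-1.85 ± 0.28, adjusted p = 0.0298). In both the groups were separate and GSH replicate 2 was the highest array. Without GSSG replicate 2 or without GSH replicate 2 the contrast had 0 calls (1065 and 1517 at an unadjusted p under 0.05), and without the replicate 1 arrays of GSSG or GSH it had 23 or 32.

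Of the 11 probe sets that changed against water, 0 passed against GSH without the block. That does not show that GSSG and GSH acted alike, and the intervals differ from gene to gene. AT1G06830 read 369 and 330 with GSH, and its GSSG minus GSH change was -0.17 (95% interval -0.72 to 0.37). For 252415_at, at 734 and 474 with GSH, it was 0.01 (-0.76 to 0.77), and for 261979_at, at 287 and 348, it was 0.10 (-0.68 to 0.88). The interval covered 0 for 5 of the 11. For AT3G63090, which read 155 and 169 with GSH, it lay from -2.58 to -1.11, an interval not adjusted for the number of probe sets (adjusted p = 0.161). 267162_s_at read 102 and 98.2 with GSH, close to water, and its change of -1.71 passed only with the block (adjusted p = 0.075, 0.0426 with the block).

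NH4NO3 fed nitrogen without sulfur or a thiol. Against it GSSG gave 48 calls (0.211%), 14 higher (0.0615%) and 34 lower (0.149%), and 228 with the block (1%). Of the 11 probe sets called against water, 7 were also called here: 252415_at, 261979_at, 267162_s_at, AT1G06830, AT4G36010, AT1G10410 and AT5G20180. AT1G06830 read 1556 and 742 with NH4NO3, so its GSSG minus NH4NO3 change was -1.75 (adjusted p = 0.0038). AT4G36010 read 373 and 375 with NH4NO3, between its water values, and the change was -1.28 (adjusted p = 0.0436). AT3G18600 read 301 and 261 with NH4NO3, below water as well, and the change of -0.50 did not pass (adjusted p = 0.257). Without GSSG replicate 1 the contrast had 90 calls, without GSSG replicate 2 it had 18, and without NH4NO3 replicate 1 it had 29. The arrays of GSSG enter both contrasts, so they are not independent of each other.

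Of the 6 genes with the largest named differences from NH4NO3, all but AT5G48490 passed in neither fit against water. AT4G15690 and AT4G15660, CC-type glutaredoxins, read 17.3 and 10.5, and 1.13 and 27.1, with GSSG. With NH4NO3 they read 308 and 320, and 362 and 207, giving changes of -3.48 ± 0.56 (adjusted p = 0.0073) and -3.42 ± 0.54 (adjusted p = 0.0053). AT2G18690 was lower than with NH4NO3 by a change of -2.56 ± 0.48 (adjusted p = 0.0263). AT4G01390 was higher than with NH4NO3 (1.88 ± 0.24, adjusted p = 0.0011), at 2164 and 2265 with GSSG, 443 and 786 with NH4NO3, and 2525 and 2206 with water. hemf2, a coproporphyrinogen oxidase gene, was also higher (2.09 ± 0.36, adjusted p = 0.0128), at 143 and 127 with GSSG and 28.2 and 12.4 with NH4NO3. AT5G48490, also among the largest positive changes against water, read 62.1 and 34.1 with NH4NO3 and was higher with GSSG (2.55 ± 0.38, adjusted p = 0.0037). At 5 weeks AT5G48490 read 52.0 and 56.1 with water and 19.5 and 32.6 with GSSG, a change of -0.75. The difference of its effects between the harvests passed in limma only with the block (-2.77, adjusted p = 0.133 without, 0.0297 with).

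At 3 weeks, in the whole aerial part, limma called 0 probe sets for GSSG against water, with or without the block, and 599 had an unadjusted p under 0.05 (2.63%; called, 0%). At 5 weeks the difference between the effects of the 2 harvests was tested. It passed for 2 probe sets (0.00879%), both with a higher change at 5 weeks, and for 44 with the block (0.193%), 40 higher (0.176%) and 4 lower (0.0176%). Leaving out 1 array moved the count of 2 to 9 without the 4-week GSSG replicate 1, to 5 and 1 without the 5-week GSSG replicates 1 and 2, and to 7 and 1 without the 5-week water replicates 1 and 2. Of the 11, none passed this test without the block (adjusted p from 0.269 to 0.995). That does not show equal changes at both harvests. Intervals of the difference, not adjusted for the number of probe sets, varied from gene to gene. They lay above 0 for some, such as 261979_at (1.11 to 3.30) and AT5G20180 (0.37 to 1.34). They covered 0 for others, such as AT1G06830 (-0.37 to 1.18) and 252415_at (-1.03 to 1.13).

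The 11 had varied values at 5 weeks. AT1G06830 read 972 and 1141 with water and 508 and 492 with GSSG at 5 weeks, a change of -1.05. For 252415_at the change was 2.24 at 5 weeks, from 21.5 and 7.02 with water to 102 and 147 with GSSG. Those water signals are near or under the pseudocount of 16, so the size of that change depends on it. AT1G76960, by contrast, read 6263 and 5618 with water and 5944 and 5983 with GSSG, a change of 0.01, and the difference of its effects passed with the block (adjusted p = 0.300 without, 0.0204 with). At 3 weeks AT1G76960 was dim, 18.8 and 14.9 with water and 3.35 and 6.70 with GSSG. AT3G18600 was brightest in the 3-week aerial parts, 1899 and 1887 with water, and read 822 and 827 with water and 645 and 631 with GSSG at 5 weeks, a change of -0.36.

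**Figure D5:**
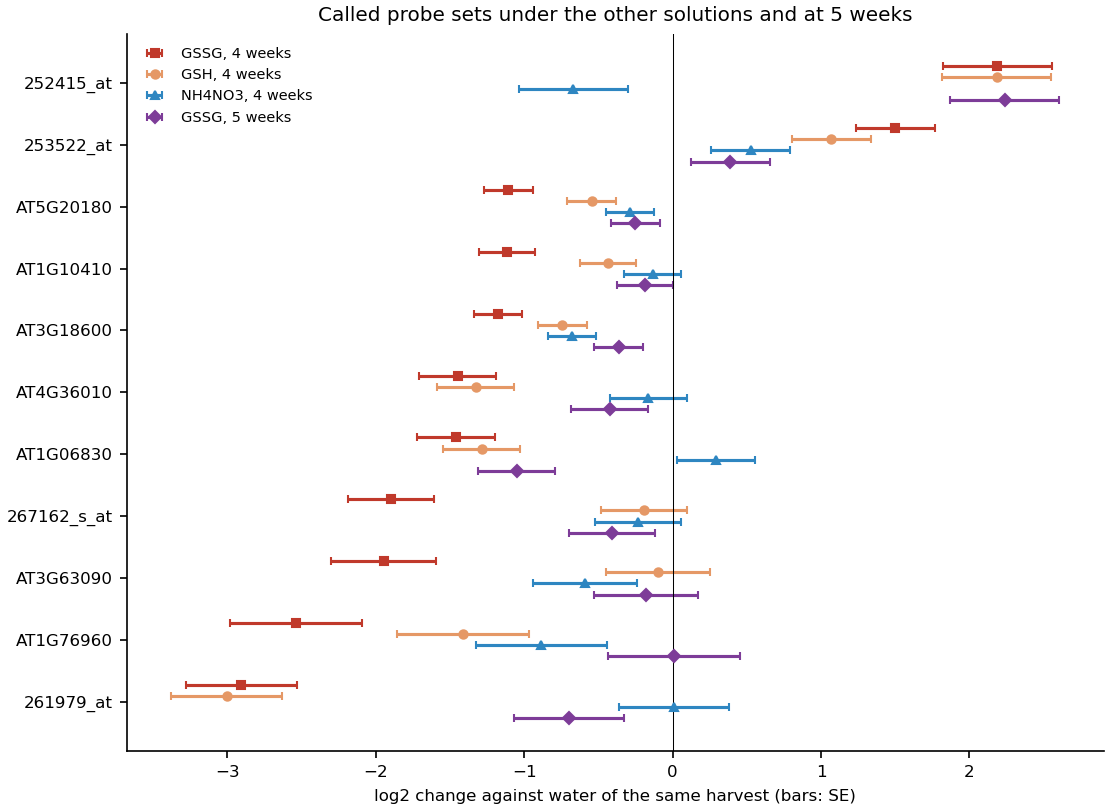
Log2 change against water of the same harvest, with SE bars, for the 11 probe sets called in GSSG at 4 weeks, beside GSH and NH4NO3 at 4 weeks and GSSG at 5 weeks. The 3 contrasts of 4 weeks share the same water arrays. All 11 have the sign of the 4-week GSSG change with GSH, and all but AT1G76960, at 0.01, have it with GSSG at 5 weeks.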

How the data were processed

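The deposited values are intensity: 1 linear signal per probe set and array, made by the authors with Affymetrix Expression Console, per the submitters' processing notes. Its version is not given in the sources used here, nor is how probes were summarised. Scaling was read from the values: trimmed means of 500.044 to 500.055 and a minimum of 1 on every array. Between 39.4% and 43.7% of probe sets had a signal under 100, and 2 arrays per group limit the precision. The labels' protocol writes NH4NO3 with its atoms in another order.

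The 64 control probe sets were left out. On log2(signal + 16) of all 24 arrays, group means were estimated together with limma 3.58.1 in R 4.3.3, with an intensity trend and Benjamini-Hochberg adjustment over 22746 probe sets. Calls were made at an adjusted p under 0.05. Fold changes on this scale understate those of dim probe sets. On simulated data for GSSG against water the test recovered 42 of 69 probe sets changed by 1 (log2). It recovered 59 of 63 changed by 2 and 67 of 68 changed by 3, and called 9 unchanged ones. The changed probe sets were drawn only from those above the median signal. Noise was drawn independently for each array, without the shared deviation of same-numbered arrays seen here. These shares are therefore not the power of the test on the real arrays. Tables and plots used Python 3.11.15, pandas 2.3.3, numpy 2.4.6 and matplotlib 3.10.9.

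Pairing was checked by correlating the deviations of same-numbered arrays from their group means. At 4 weeks all 6 pairs of groups gave 0.242 to 0.394, at 5 weeks 0.116 to 0.399 and at 3 weeks 0.0487 to 0.249. Numbers come from the titles, and blocked values are given where they change a call.

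Of the probe sets, 13513 had 1 gene in the platform annotation, 503 several and 8730 were unnamed here. Symbols were updated by gene identifier for 13436. Named genes are all called probe sets, the 10 largest changes each way (unadjusted p under 0.01, higher mean of at least 100, groups apart), up to 3 members per list by p and up to 3 called genes each way in the other contrasts. Of 1021 places on 44 lists, 165 had a probe set annotated to that gene alone and are called measured. In addition, 4 members whose name belongs to another locus were left out. Members and lists were chosen with earlier results of these data known. Alternatives were other normalizations, filters, pseudocounts and priors, a replicate block, fewer arrays and leaving out each array. No sequences or coordinates were used.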

Additional observations from a re-analysis of the deposited data

Results flagged for a closer look

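For 2 probe sets the GSSG effect differed between 5 and 4 weeks by the interaction test in limma. AT1G49500 had a difference of 4.60 ± 0.52 (SE, log2; adjusted p = 0.0007): at 4 weeks it read 3427 and 7568 with water and 2686 and 2439 with GSSG, a change of -0.99 that did not pass, and at 5 weeks it read 8.04 and 7.05 with water and 263 and 280 with GSSG, a change of 3.61. Its 5-week water signals are under the pseudocount of 16 added before the log, so the sizes 3.61 and 4.60 depend on that choice. Water replicate 2 was the highest of its 4 arrays at 4 weeks. The unnamed 248267_at had a difference of 2.17 ± 0.31 (adjusted p = 0.0121), from 3526 and 3042 with water to 1885 and 2183 with GSSG at 4 weeks (-0.69), and from 877 and 622 to 1647 and 2680 at 5 weeks (1.49).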

How the results depend on the processing

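For GSSG against water, 11 probe sets were called; the count was 156 with the replicate block, 6 with a pseudocount of 64, and 0 without the intensity trend, with only the 4-week arrays or with only the groups compared (2159, 1380 and 1422 at an unadjusted p under 0.05). It ranged from 0 to 42 when 1 array was left out. Against GSH the count of 2 became 4 after quantile normalization, 6 with a pseudocount of 1, and 0 without the trend, with only the 4-week arrays or with only the groups compared (1563, 936 and 874 at an unadjusted p under 0.05), and ranged from 0 to 32 with 1 array left out. Against NH4NO3 the 48 became 228 with the replicate block and 0 with only the 4-week arrays or the groups compared (1461 and 1383 at an unadjusted p under 0.05), and ranged from 18 to 90 with 1 array left out. For the 5-week against the 4-week effect, 2 became 5 and 1 with pseudocounts of 1 and 64, 1 without the trend, 44 with the block and 4 with only the groups compared, and ranged from 1 to 9 with 1 array left out. Fewer arrays leave fewer degrees of freedom, but the cause of any of these shifts was not tested. AT4G01390, at -0.09, ranged from -0.188 to 0.00502 when an array was left out, above 0 without water replicate 1, and was 0.0379 within the replicate 2 arrays. Of 15 alternatives, AT1G06830 and AT3G63090 were called in 4, AT3G18600 and AT5G20180 in 8 and 261979_at in 9; all 11 were lost without GSSG replicate 2 or water replicate 2, and none changed sign. List medians under quantile normalization or centring kept their sign, except that of nitrate and ammonium uptake and the guard cell marker, which were near 0.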
